A study of Mus musculus with 6 samples.

Results

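Adipocyte genes were examined in whole spleen as a sign of fat taken along with the organ, and their levels were compared between 2 crosses. The genes were chosen by name, as 9 transcripts typical of fat cells: Adipoq, Cfd, Fabp4, Plin1, Retn, Lep, Cidec, Lpl and Pck1. A probe set, the group of array probes that reports 1 transcript, was taken where the platform annotation gave it exactly 1 of these symbols. This gave 13 probe sets of 7 genes, out of 45037 probe sets tested, of which 34945 had 1 symbol. Cfd and Plin1 had no such probe set and were not analysed here. The samples were spleens of adult F1 females, 3 of (AKR/J x FVB/NJ)F1, called AKR F1 below, and 3 of (DBA/2J x FVB/NJ)F1, called DBA F1, so that both share the FVB/NJ genome. All were killed under Avertin anaesthesia, and the labels name no other treatment and no engineered allele. The labels give no age beyond adult, no litter and no dissection record, and each spleen was measured on 1 Affymetrix array. They do not say whether spleens of a cross came from separate litters or extractions, and p-values measure only the spread between these samples.

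Fat cells store triglyceride in a single large droplet and release hormones into the blood. Adiponectin (Adipoq), leptin (Lep) and, in the mouse, resistin (Retn) are such hormones, while Plin1 and Cidec proteins coat the droplet and Fabp4 carries fatty acids inside the cell. Lipoprotein lipase (Lpl) frees fatty acids from circulating lipoproteins, and Pck1 makes the glycerol backbone of triglyceride in fat and glucose in liver and kidney. The spleen has no fat depot of its own, but it lies in abdominal fat next to the tail of the pancreas. Lpl is also made by macrophages and Fabp4 by macrophages and endothelial cells, whereas Adipoq and Lep are largely restricted to fat cells.

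The start regions of Adipoq and Lep are shown because these hormones, both made by fat cells, differed in whether their probe set rose above background. Each window runs from 250 bases before to 50 bases after the start of the gene, 5′ to 3′, from RefSeq on GRCm38.p6. Capitals mark CCAAT on either strand in the Adipoq window, at chr16:23146286-23146585 on the plus strand, and the C/EBP palindrome TTGCGCAA in the Lep window, at chr6:29059971-29060270 on the plus strand.
Adipoq: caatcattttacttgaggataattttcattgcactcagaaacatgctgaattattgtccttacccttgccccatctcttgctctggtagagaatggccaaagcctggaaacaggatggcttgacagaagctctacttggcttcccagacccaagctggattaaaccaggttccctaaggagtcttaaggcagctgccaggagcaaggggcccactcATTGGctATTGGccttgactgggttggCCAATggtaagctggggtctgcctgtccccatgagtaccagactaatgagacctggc
Lep: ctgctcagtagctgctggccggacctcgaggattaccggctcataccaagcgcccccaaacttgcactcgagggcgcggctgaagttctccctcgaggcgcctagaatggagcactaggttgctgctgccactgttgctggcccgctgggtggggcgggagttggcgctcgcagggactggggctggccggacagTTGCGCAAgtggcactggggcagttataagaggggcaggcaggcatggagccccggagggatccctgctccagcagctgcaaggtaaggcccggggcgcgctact
CCAAT stood at 3 places in the Adipoq window, 34 and 27 bases before the start as its reverse complement and 7 bases before it as written. It occurs in 37.4% of 32851 such windows. The palindrome TTGCGCAA, a binding motif of the fat cell regulator C/EBP alpha, began 55 bases before the start of Lep and occurs in 0.183% of windows. The nuclear receptor element AGGTCA (16.3% of windows), its direct repeat with 1 base between (0.0396%), the E box CACGTG (7.15%) and TATAAA (13.6%) were not found in the 8 windows of the 7 members listed there. Both strands were searched, a direct repeat also counts toward the single element, and a match describes letters only.

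The adiponectin signal was clear in most spleens but varied 10.2-fold from array to array, and the 2 crosses overlapped. Fabp4, Retn and Lpl were also above background in every array, Cidec in 2 of the 6 arrays, and Lep and Pck1 in 0. Background was set at 3.61 on the log2 scale, the 90th percentile of 21 probe sets for 10 genes of the Y chromosome, retina or testis, which female spleen should not use. Crx and Prm1 of that list stood above it in all 6 arrays, so the level is a guide and not a limit of detection. Of these 10 genes Crx passed between the crosses, higher in DBA F1 (-0.40, limma adjusted p = 0.0493). By their mean over the arrays, 4 of the 7 measured members were above background, against 80.2% of 18193 genes. That share also stands beside the counts above background given for other lists below. Of the 13 member probe sets, 1 differed between crosses at an adjusted p of 0.05 in limma, against 10.4% of all probe sets tested. That 1 was a Pck1 probe set below background in every array, higher in DBA F1, where 5.26% of all probe sets passed. Toward AKR F1 0 members passed in limma, where 5.14% of all probe sets did. At an unadjusted p under 0.05 there were 3 toward AKR F1 and 1 toward DBA F1, 4 of 13, against 30.7% of all. As deposited, 49.4% of all calls were toward AKR F1, and after median centring of the arrays 61.9% were.

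**Figure D1:**
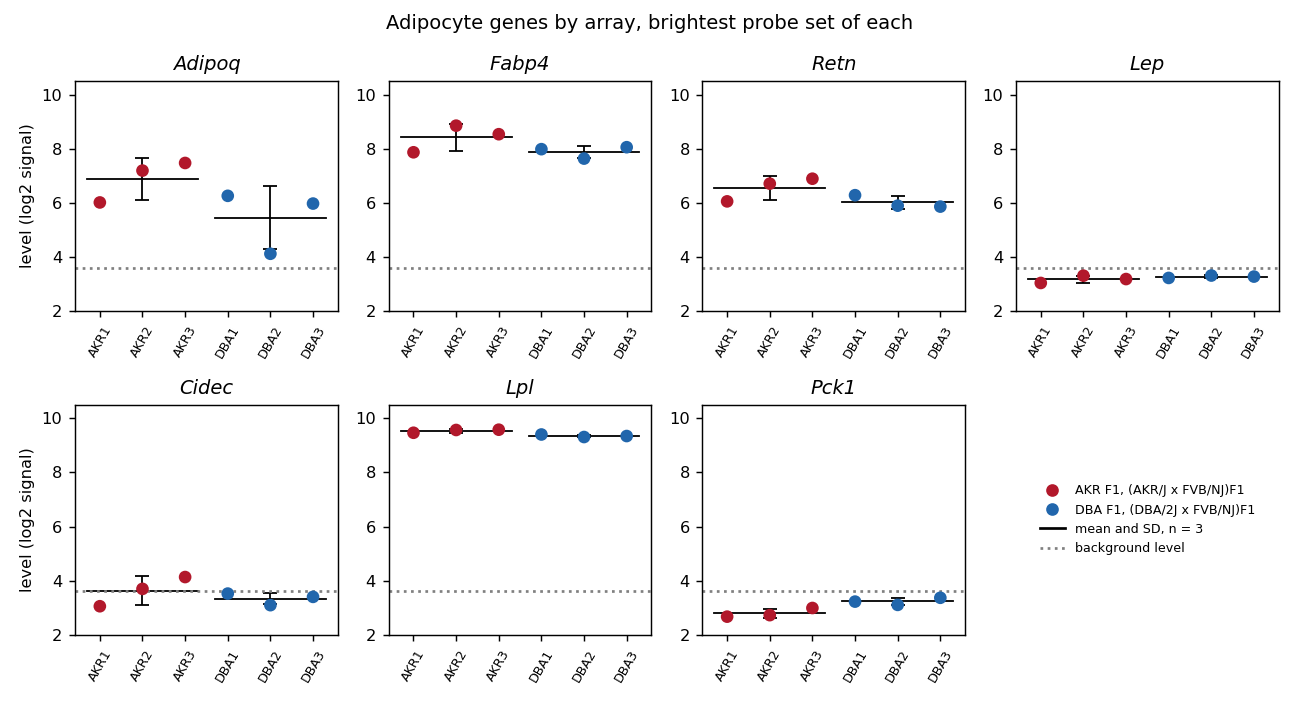
Level (log2 signal) of the brightest probe set of each measured adipocyte gene on the 6 arrays, with the mean and SD of each cross (n = 3) and the background level of 3.61 as a dotted line. Adipoq spreads from 4.12 to 7.47 with both crosses overlapping, whereas Lep and Pck1 lie below the dotted line throughout.

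Among the secreted hormones, Adipoq, which encodes adiponectin, stood at 6.01, 7.19 and 7.47 in replicates 1, 2 and 3 of AKR F1. In DBA F1 it stood at 6.26, 4.12 and 5.97. Replicates 2 and 3 of AKR F1 were the highest, replicate 2 of DBA F1 was far below the other arrays, and replicate 1 of AKR F1 lay among the DBA F1 arrays. The means were 6.89 ± 0.77 and 5.45 ± 1.16 (SD, n = 3 each), a difference of 1.44 ± 0.56 on the log2 scale (SE). This is 2.72-fold toward AKR F1 with a 95% interval of 1.11 to 6.65, and it did not pass (limma adjusted p = 0.128). The difference was 0.78 without replicate 2 of DBA F1 and 1.88 without replicate 1 of AKR F1. Within a cross the arrays spanned 1.46 (AKR F1) and 2.14 (DBA F1), and the spread of Adipoq within crosses lay at the 99.8th percentile of all probe sets.

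Retn, which encodes resistin, stood at 6.05, 6.71 and 6.89 in AKR F1 and at 6.28, 5.89 and 5.86 in DBA F1. Again replicates 2 and 3 of AKR F1 were highest, and the AKR F1 array lowest for Retn lay below the highest DBA F1 array. The difference was 0.54 ± 0.21 (SE, 95% interval 0.05 to 1.03) and did not pass with all arrays (limma adjusted p = 0.130). Without replicate 1 of AKR F1 it was 0.79 and passed (limma adjusted p = 0.0487). Without any other array it did not pass.

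Lep stood at 3.04, 3.31 and 3.18 in AKR F1 and at 3.22, 3.31 and 3.27 in DBA F1. All 6 values lay below the background level, so leptin transcript could not be told from background with this probe set. The difference of -0.09 (95% interval -0.30 to 0.12, limma adjusted p = 0.515) is therefore not read as a difference in amount.

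Fabp4, the fatty acid binding protein of fat cells, had 4 probe sets. At the brightest, 1417023_a_at, it stood at 7.87, 8.85 and 8.54 in AKR F1 and at 7.98, 7.63 and 8.05 in DBA F1. Replicates 2 and 3 of AKR F1 were above all DBA F1 arrays, and replicate 1 was within their range. The difference was 0.53 ± 0.23 (SE, 95% interval -0.0041 to 1.06, limma adjusted p = 0.166). At 1451263_a_at the values were 5.61, 6.19 and 5.81 against 5.69, 5.38 and 5.70, a difference of 0.28 (limma adjusted p = 0.258). Both probe sets were highest in replicate 2 of AKR F1 and lowest in replicate 2 of DBA F1. The other Fabp4 probe sets, 1424155_at and 1425809_at, were dim, at most 4.06 in any array, and differed by 0.06 and -0.31 (limma adjusted p = 0.819 and 0.182). Neither gives the ordering of the bright pair, and they exceeded the background level in 5 and 2 of the 6 arrays.

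Cidec, a protein that fuses lipid droplets, stood at 3.05, 3.70 and 4.13 in AKR F1 and at 3.52, 3.09 and 3.40 in DBA F1. It rose above background in replicates 2 and 3 of AKR F1, the arrays with the highest Adipoq, and not in the other 4. The groups overlapped (difference 0.29, 95% interval -0.27 to 0.85, limma adjusted p = 0.452).

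The enzyme Lpl was the steadiest member. At 1415904_at it stood at 9.46, 9.57 and 9.58 in AKR F1 and at 9.40, 9.31 and 9.34 in DBA F1. All AKR F1 arrays were above all DBA F1 arrays, as was the case for 17.7% of all probe sets. The difference was 0.19 ± 0.08 (SE, 95% interval 0.01 to 0.37), or 1.14-fold, and did not pass (limma adjusted p = 0.153). At 1431056_a_at the difference was 0.18 (limma adjusted p = 0.183), again without overlap. Over the 6 arrays Lpl ranged 1.21-fold at the first of these probe sets, where Adipoq ranged 10.2-fold.

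Pck1, the cytosolic phosphoenolpyruvate carboxykinase, was below background at all 3 of its probe sets in every array. At 1439617_s_at it stood at 2.67, 2.73 and 2.99 in AKR F1 and at 3.23, 3.10 and 3.37 in DBA F1. The DBA F1 arrays were all higher, as for 18.3% of all probe sets, and the difference was -0.44 ± 0.11 (SE, limma adjusted p = 0.0461). The call was lost whichever 1 array was left out, with an adjusted p from 0.0521 to 0.133 over those 6 fits. At 1423439_at and 1455209_at the differences were -0.13 and -0.07 (limma adjusted p = 0.708 and 0.664). No fold is given, since both groups lay under the background level.

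**Figure D2:**
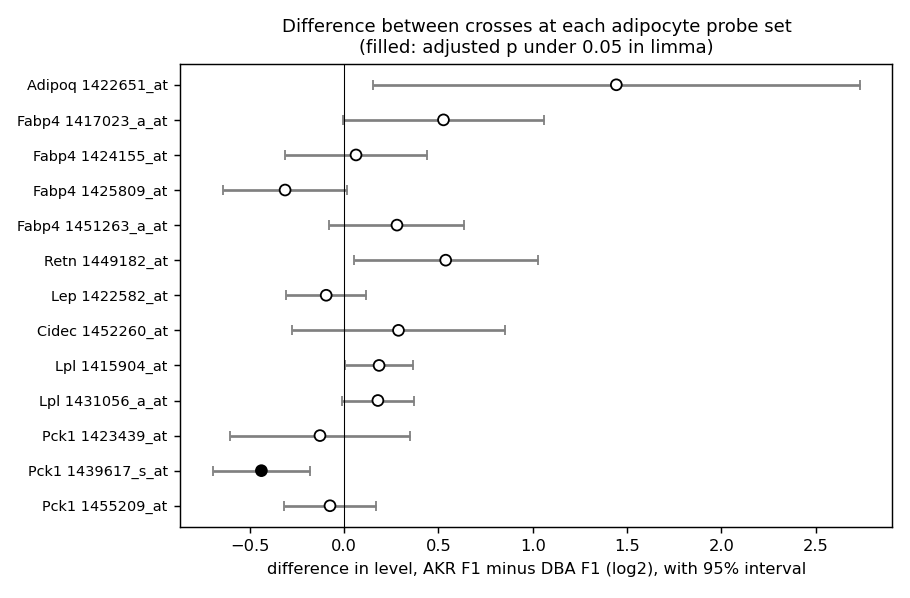
Difference in level between the crosses (AKR F1 minus DBA F1, log2) with its 95% interval at each of the 13 adipocyte probe sets, filled where the adjusted p passed 0.05. Adipoq has the widest interval (0.15 to 2.73) and the filled point is the Pck1 probe set 1439617_s_at, at -0.44.

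The members above background in every array had similar but not identical orders of arrays. Of Adipoq, Fabp4, Retn and Lpl at their brightest probe set, 3 were highest in replicate 3 of AKR F1 and 3 were lowest in replicate 2 of DBA F1. Over the 6 arrays Pearson's r with Adipoq was 0.87 for Fabp4, 0.84 for Retn, 0.88 for Lpl and 0.82 for Cidec, and Spearman's rho was 0.77, 0.94, 0.94 and 0.83. Without replicate 2 of DBA F1 and replicate 3 of AKR F1, the arrays farthest from the median of Adipoq, r was 0.96, 0.96, 0.85 and 0.76 over 4 arrays. With the mean of each cross removed it was 0.77, 0.70, 0.87 and 0.81. These are descriptions over few arrays, which share each array's scaling. For Lep and for Pck1 (1439617_s_at), at background, r with Adipoq was -0.21 and -0.31.

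The mean of the 7 measured members, read only for its order over arrays, was 5.45, 6.01 and 6.11 in AKR F1 and 5.70, 5.21 and 5.61 in DBA F1. The groups overlapped, since replicate 1 of AKR F1 was below 2 of the DBA F1 arrays. Without Lpl and Pck1 the order of the arrays was the same, from 4.81 in replicate 2 of DBA F1 to 6.04 in replicate 3 of AKR F1. In whole spleen, fewer fat cells and less RNA per fat cell cannot be told apart.

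The gene most like Adipoq was carbonic anhydrase 3 (Car3), an abundant enzyme of fat and slow muscle. It led 590 genes with a mean of at least 5 and an SD over arrays of at least 0.5. Each gene was taken at its probe set with the highest r. Steadier genes were not ranked, among them Nr1h3 (r = 0.93) and Lipe (r = 0.91). Car3 stood at 8.76, 9.81 and 10.03 in AKR F1 and at 9.02, 7.34 and 8.62 in DBA F1 (1449434_at). The 6 arrays fell in the same order as for Adipoq, with r = 0.996 and rho = 1 over 6 arrays, r = 0.994 over the 4 arrays named above, and r = 0.993 with cross means removed. Car3 ranged 6.44-fold over the arrays and did not pass between crosses (difference 1.20 ± 0.45, limma adjusted p = 0.115). Its next brightest probe set, 1460256_at, ranged 3.90-fold with r = 0.972.

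Next came Cyp2e1, a cytochrome P450 best known from liver, with r = 0.972 and rho = 0.94. Its r was 0.921 over the 4 arrays named above and 0.973 with cross means removed. Cyp2e1 stood at 6.03, 7.24 and 7.52 in AKR F1 and at 6.67, 5.27 and 6.40 in DBA F1. Thrsp, a nuclear protein of lipid-making cells, followed with r = 0.867 at 1424737_at, where it stood at 5.62, 7.44 and 6.72 against 6.02, 5.14 and 5.71. There its r was 0.997 over the 4 arrays and 0.770 with cross means removed. The other Thrsp probe sets followed Adipoq less closely (r = 0.483 at 1422973_a_at and -0.148 at 1444166_at). Cyp2e1 and Thrsp overlapped between crosses and did not pass (limma adjusted p = 0.244 and 0.156). The other 5 of the 8 most like genes were Igkv6-20, Fxyd6, Npnt, Igfbp5 and Sectm1a (r from 0.803 to 0.865). These 5 differed between crosses (limma adjusted p from 0.00517 to 0.0257), and over the 4 middle arrays their r was 0.251 to 0.672. With cross means removed it was 0.649 to 0.833. For the mean of the members, the 8 most like genes began with the same 3. These were Cyp2e1 (r = 0.994), Car3 (0.986, at 1460256_at) and Thrsp (0.915). Cxcl1, Igkv6-20, Fxyd6, Npnt and Terb1 followed (0.739 to 0.824).

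**Figure D3:**
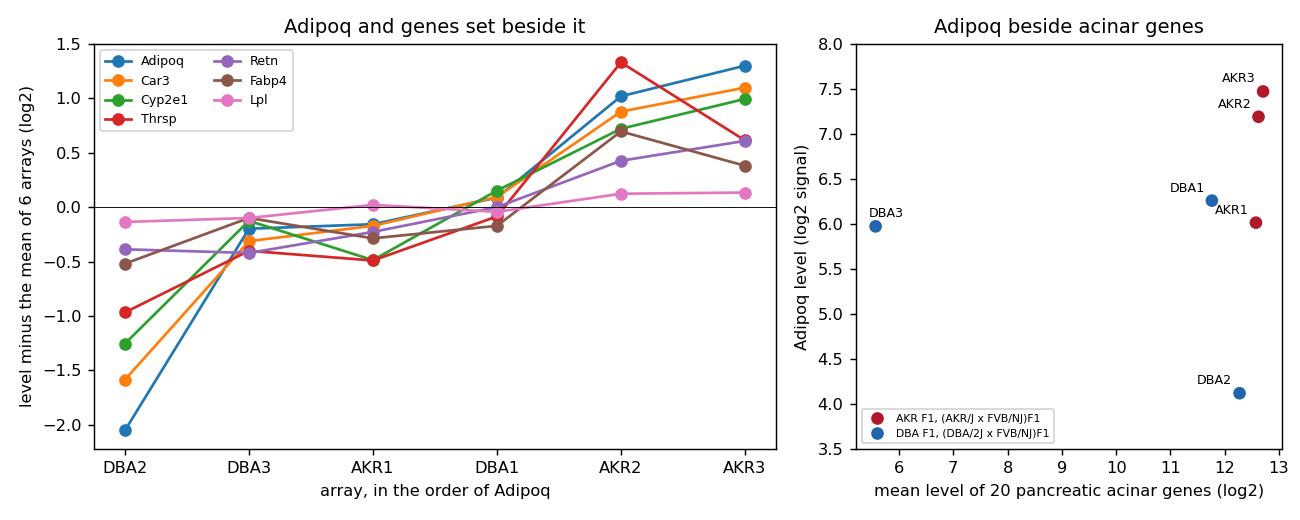
Left, level minus its mean over the 6 arrays (log2) for Adipoq and 6 other genes, arrays ordered by Adipoq; right, Adipoq level against the mean level of 20 pancreatic acinar genes, 1 point per array. Car3 and Cyp2e1 follow Adipoq from replicate 2 of DBA F1 to replicate 3 of AKR F1, and the array lowest in acinar genes (5.57) has an Adipoq level of 5.97.

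Other genes of white fat cells, a list of 42 of which 40 were measured, gave a mixed picture. At the brightest probe set of each gene, 6 were higher in AKR F1, 1 was higher in DBA F1 and 33 did not pass, against 12.5% of 18193 genes past the threshold in either direction. Toward AKR F1 6.29% of all genes passed and toward DBA F1 6.17%. The median difference was 0.17 for the list and -0.01 over all genes. Itih4, a plasma protein best known from liver, differed by 1.96 ± 0.12 (limma adjusted p = 0.000222). Acaca, the enzyme that starts fatty acid synthesis, differed by 0.45 ± 0.08 (limma adjusted p = 0.0155), and Cav2, a caveolin, by 0.43 ± 0.09 (0.0274). The insulin-regulated glucose transporter Slc2a4 was lower in AKR F1 (-1.06 ± 0.16, limma adjusted p = 0.00959). The remaining genes that passed toward AKR F1 were Pde3b, Scd1 and Cav1, with differences of 0.39, 0.40 and 0.35. With 1 array left out, Itih4 and Slc2a4 passed in all 6 fits, Acaca in 2, Cav2 and Pde3b in 1 each, and Scd1 and Cav1 in 0.

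Over the 6 arrays Pearson's r of these 7 genes with Adipoq ran from -0.64 for Slc2a4 to 0.91 for Scd1, and Spearman's rho from -0.77 for Slc2a4 to 0.89 for Acaca. For the 6 genes that passed toward AKR F1 these values include the difference between crosses. Their r with cross means removed was not computed. Itih4 stood at 5.77, 6.15 and 6.19 in AKR F1 and at 4.03, 4.13 and 4.09 in DBA F1, with no overlap. Acaca stood at 7.28, 7.35 and 7.40 against 6.93, 6.89 and 6.86. In replicate 1 of AKR F1, where Adipoq lay among the DBA F1 arrays, Acaca was above all DBA F1 arrays. The list count toward AKR F1 was 3, 2 and 1 leaving out replicates 1, 2 and 3 of AKR F1. Leaving out the DBA F1 replicates in the same way, it was 6, 1 and 1. It was 2 after quantile normalization. Over the whole array, 2317 probe sets passed toward AKR F1 with all arrays. Leaving out arrays in that order gave 514, 768, 587, 2286, 606 and 649, and quantile normalization 1436. Toward DBA F1 the list count was 3 without replicate 1 of that cross, and 1 without any other array.

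Of 11 transcription regulators of fat cell formation, 1 was higher in AKR F1, Cebpa (0.36 ± 0.09, limma adjusted p = 0.0417), which encodes C/EBP alpha, and 10 did not pass (median 0.22). Cebpa stood at 7.97, 7.94 and 7.95 in AKR F1 and at 7.73, 7.58 and 7.48 in DBA F1. It is also a regulator of myeloid cells. Pparg, the receptor that drives fat cell formation, stood at 6.76, 6.80 and 6.70 against 6.59, 6.48 and 6.61 and did not pass (0.19, limma adjusted p = 0.151). Without replicate 1 of DBA F1 2 regulators passed toward AKR F1, and without any other array 0 did.

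Of 8 brown fat genes 0 passed in limma and 0 had an unadjusted p under 0.05 (median -0.15), and 4 of the 8 had a mean above background. Ucp1, the uncoupling protein that defines brown fat, lay between 3.54 and 4.13 in all arrays, near the background level. The brown fat gene with the smallest p was Elovl3 (-0.18, limma adjusted p = 0.188), at background.

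Of 30 measured genes that act with the members, 4 passed (13.3%), against 12.5% of all genes. Of 10 measured genes that handle, carry or inhibit lipoprotein lipase, 1 passed, Sel1l, which helps lipase leave the endoplasmic reticulum (0.74 ± 0.13, limma adjusted p = 0.0164). Sel1l passed in 4 of the 6 fits with 1 array left out, and not without replicate 2 or 3 of AKR F1. Gpihbp1, which anchors lipase to capillaries, differed by 0.03 (limma adjusted p = 0.858). Among 10 receptors and signalling partners of adiponectin, leptin and resistin, Stat3 (0.43) and the adaptor Appl1 (0.31) were higher in AKR F1 and Cap1 (-0.58) in DBA F1 (limma adjusted p = 0.0158, 0.0469 and 0.0155). With 1 array left out these passed in 2, 1 and 3 of 6 fits. The receptors Adipor1 (-0.26), Adipor2 (0.03) and Lepr (-0.37) did not pass (limma adjusted p = 0.144, 0.804 and 0.118). Of 10 genes that act with Pck1 in making glucose or glycerol 0 passed in limma and 2 had an unadjusted p under 0.05 (median -0.11). Got1 had the smallest p (0.35, limma adjusted p = 0.0809).

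**Figure D4:**
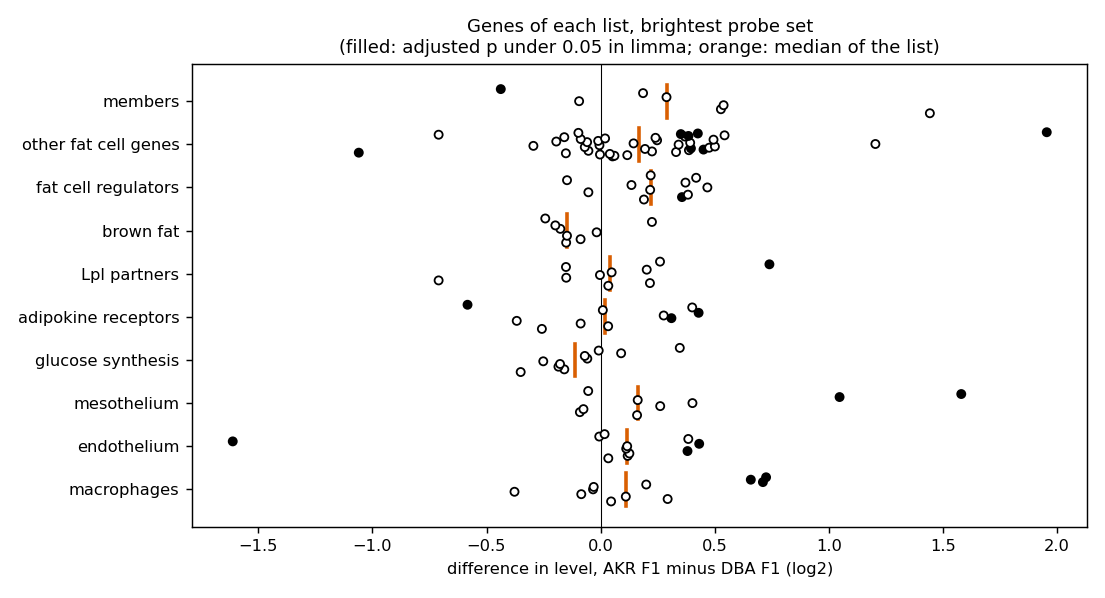
Difference in level (AKR F1 minus DBA F1, log2) for each gene of 10 lists at its brightest probe set, filled where the adjusted p passed 0.05, with the median of each list as an orange bar. The medians run from -0.15 for brown fat to 0.29 for the members, and most points are open.

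Markers of other tissues that could come with the spleen resembled Adipoq to different degrees over the 6 arrays. For 20 acinar genes r with Adipoq ran from 0.09 to 0.66 (median 0.11) and rho from 0.43 to 0.83 (median 0.69). For 9 mesothelial genes the medians were 0.49 and 0.71, and for 8 striated muscle genes -0.16 and -0.09. For the 40 other genes of white fat cells they were 0.50 and 0.57. For 11 endothelial genes they were 0.66 and 0.60, for 11 macrophage genes 0.66 and 0.66, and for 8 spleen genes 0.58 and 0.49. Likeness to Adipoq over the 6 arrays, which includes the difference between crosses, was thus not particular to fat cell genes. For these lists r with cross means removed was not computed. Over 20 measured pancreatic acinar genes the mean level was 12.57, 12.62 and 12.71 in AKR F1 and 11.76, 12.27 and 5.57 in DBA F1, with all 20 genes above background on average. For each of the 20 the AKR F1 arrays were all above the DBA F1 arrays, as for 22% of 18193 genes, and 2 passed, Rbpjl (0.78, limma adjusted p = 0.0246) and Ptf1a (1.81, limma adjusted p = 0.0455), each in 2 of the 6 fits with 1 array left out. Replicate 3 of DBA F1, lowest in acinar genes, had an Adipoq level of 5.97. Replicate 2 of that cross, lowest in Adipoq, had an acinar mean of 12.27. Without replicate 3 of DBA F1 the Adipoq difference was 1.70 and with the acinar mean as a covariate 1.82, against 1.44 (limma adjusted p = 0.150 and 0.165). The Pck1 difference at 1439617_s_at was -0.37 and -0.35 in these fits, against -0.44. The acinar mean mainly sets replicate 3 of DBA F1 apart from the other arrays, so these fits are not separate checks.

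The mesothelium covers the spleen and the fat beside it. Of 9 mesothelial genes, 2 were higher in AKR F1, the keratins Krt8 (1.05, limma adjusted p = 0.0268) and Krt18 (1.58, limma adjusted p = 0.0303), which other epithelia also make. Both lost the call whichever 1 of the AKR F1 arrays was left out, and kept their direction in all 6 fits. Over the whole array, probe sets passing toward AKR F1 fell from 2317 to 514, 768 and 587 without replicates 1, 2 and 3 of AKR F1. Krt8 and Krt18 were lowest in replicate 3 of DBA F1, the array lowest in acinar genes, at 4.67 (Krt8) and 3.90 (Krt18). The other 7 did not pass, namely Lrrn4 (0.40), Wt1 (0.26), Krt19 (0.16), Msln (0.16), Muc16 (-0.05), Upk1b (-0.08) and Upk3b (-0.09). Upk3b, a mesothelial membrane protein, was highest in replicate 3 of AKR F1 (6.50) and replicate 1 of DBA F1 (6.43) and lay between 4.81 and 5.47 in the other arrays. The mean of the list ran from 4.98 to 5.52 in AKR F1 and from 4.59 to 5.08 in DBA F1, and 8 of the 9 genes were above background on average. Its part in the member levels was not tested.

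Macrophages and endothelial cells are further sources of Lpl and Fabp4. Of 11 macrophage genes, Marco (0.66), Cd5l (0.71) and Timd4 (0.73) were higher in AKR F1 whichever array was left out and 0 in DBA F1. Over all genes 6.29% passed toward AKR F1. The other 8 macrophage genes did not pass, and 4 of the 11 had a negative difference, the largest for Cd163 (-0.38). The median was 0.11, and the list mean was 9.94 to 10.03 against 9.70 to 9.87. Of 11 endothelial genes, Tek (0.43) and Kdr (0.38) were higher in AKR F1 and Aqp1 (-1.61), also a red cell protein, in DBA F1. With 1 array left out they passed in 2, 1 and 5 of 6 fits. The other 8 endothelial genes did not pass. The median was 0.12, and the list mean was 7.23 to 7.32 against 7.20 to 7.37. All 11 genes of each list were above background on average. Cd36, a fatty acid transporter of fat cells, macrophages and endothelium, ran from 9.98 to 10.24 over all arrays and did not pass (0.06, limma adjusted p = 0.688). All 9 measured genes of red cell precursors were higher in DBA F1, with a list mean of 8.12 to 8.82 in AKR F1 against 9.90 to 10.70. The smallest p belonged to the membrane skeleton gene Epb42 (-1.85), Rhag (-2.34), the heme synthesis enzyme Alas2 (-1.31) and Rhd (-2.46), which passed in all 6 fits with 1 array left out. The part of these cell types in the Lpl and Fabp4 levels was not tested.

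Genes that define spleen were present in every array. The 8 measured lymphocyte, red pulp and stromal genes averaged 9.61 to 9.69 in AKR F1 and 9.39 to 9.47 in DBA F1. The T cell genes Cd3g (0.58) and Cd3e (0.41) and the B cell gene Cd79a (0.36) passed toward AKR F1, in 6, 1 and 1 of 6 fits with 1 array left out. Tlx1, the regulator needed to form a spleen, ran from 7.56 to 7.80. Liver genes averaged 4.25 to 4.30 and 4.41 to 4.45, of which Apoa1 (-0.49) and Apob (-0.33) were higher in DBA F1 (1 and 0 of 6 fits with 1 array left out), and Alb stood between 3.75 and 4.09. In striated muscle, another tissue that makes Car3, Actn2 was higher in AKR F1 (1.94, 6 of 6 fits, rho with Adipoq 0.83) and Actc1 in DBA F1 (-0.56, 1 of 6). The muscle enzyme Ckm ran from 5.51 to 5.95 without passing (limma adjusted p = 0.325). Of 7 islet genes and 10 neutrophil precursor genes, 0 and 0 passed in limma, and 0 and 0 had an unadjusted p under 0.05. Those with the smallest p were Ins2 (0.86, limma adjusted p = 0.207), which ran from 5.03 to 7.42, and Elane (-0.54, limma adjusted p = 0.229).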

How the data were processed

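Per the labels' protocols, RNA was extracted from snap-frozen spleen with Trizol and labelled with biotin. The deposited values are log2 signal per probe set, brought to a common scale by the authors before deposit. Array medians ran from 5.04 to 5.08 in AKR F1 and from 5.08 to 5.10 in DBA F1. RMA and MAS5 are named in the submitters' processing notes, with no role given. If RMA made them, such values compress differences near background. As deposited they give no detection calls, and they can shift where a parental variant lies under a probe. The number of arrays limits the precision.

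Groups and replicate numbers came from the titles. After leaving out 64 control probe sets, 45037 were tested with limma 3.58.1 (lmFit, eBayes) in R 4.3.3 on the 6 arrays together without covariates, at 0.05 after Benjamini-Hochberg adjustment over every probe set. Intervals are at 95%. The fit was tested on simulated data. An exact permutation test of 3 against 3 cannot go below p = 0.1.

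Platform annotation gave 1 symbol to 34945 probe sets, several to 932 and none listed to 9160; 34741 matched RefSeq, with 0 symbols changed. Lists used the probe set of each gene with the highest mean (18193 genes). The members and lists were chosen with earlier results of these data known. All member probe sets are named. From each of the 17 other lists, up to 4 genes past the threshold with the smallest p are named, or the one with the smallest p where none passed; others were added as context after their values were seen. Likeness to Adipoq was Pearson's r over 6 arrays. The ranking took each gene at its probe set with the highest r, and the lists at the brightest. Promoters came from RefSeq's table, which held windows for 7 of the 9 members.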

Additional observations from a re-analysis of the deposited data

How the results depend on the processing

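Adipoq, Retn, Lpl, Cidec and the bright Fabp4 probe sets kept their direction under the alternatives tried. Leaving out dim probe sets, a trended and robust variance, and the replicate block leave each difference unchanged. Under these only the side of the threshold could move, yet their values are counted below. Of 169 values of single member probe sets under alternatives, 149 kept direction and side of the threshold, 10 lost the call (all Pck1 1439617_s_at), 1 gained it (Retn) and 9 changed sign, all at dim probe sets. The sign changes were Lep at 0.0062 with quantile normalization and, with the acinar covariate, Fabp4 1424155_at at -0.0035, Pck1 1423439_at at 0.058 and Pck1 1455209_at at 0.043. With 1 array left out Fabp4 1424155_at ran from -0.065 to 0.26, Pck1 1423439_at from -0.33 to 0.028 and Pck1 1455209_at from -0.12 to 0.018. The cause was not tested.

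The 1 member call toward DBA F1 became 0 with median centring, quantile normalization, dim probe sets left out (which removes Pck1), the acinar covariate, or probe sets averaged per gene. With 1 array left out it was 0 to 0, and the count toward AKR F1 0 to 1. The difference of the members' mean, 0.35, ran from 0.20 to 0.55 with 1 array left out. Over the whole array, 2317 probe sets passed toward AKR F1 and 2371 toward DBA F1. With 1 array left out these counts ran from 514 to 2286 and from 487 to 2507. They were 367 and 332 with the covariate, 1436 toward AKR F1 with quantile normalization, 1512 toward DBA F1 with 1 probe set per gene, and 1247 and 1363 with probe sets averaged per gene.

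With the replicate number as a block, 1 member probe set passed (Pck1 1439617_s_at, limma adjusted p = 0.0319), and 2461 and 2197 probe sets passed over the array. Same-numbered arrays had deviations correlated at 0.20, 0.11 and 0.05, and each AKR F1 array matched its own number best among DBA F1 arrays, a hint from the data that the labels do not state. The planned pseudocount applied to linear values and was not run.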
